A study of Mus musculus with 9 samples.

Results

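Syndecans and glypicans are the main families of heparan sulfate proteoglycans on the surface of animal cells. The 4 mouse syndecans (Sdc1, Sdc2, Sdc3 and Sdc4) and the 6 mouse glypicans (Gpc1 to Gpc6) were chosen by gene symbol, as every probe that the annotation of the array platform gives to these 10 genes. They are read by 18 probes, 7 for syndecans and 11 for glypicans, of the 45281 probes on the Illumina MouseWG-6 BeadChip, which reads 19057 genes by symbol. The RNA came from mNS-5 NSCs, a clonal line of mouse neural stem cells derived from embryonic stem cells, grown on gelatin with FGF-2 and EGF. One set of cultures received a lentivirus with a non-silencing shRNA (NS control, 3 arrays) and the other a lentivirus with a shRNA against Med12 (Med12 knockdown, 6 arrays), and all were selected with puromycin and harvested 5.5 days after infection. By the sample labels there are 3 sets of arrays, each of 1 control and 2 knockdown arrays, named below as replicate 1, 2 or 3 for the first knockdown series and replicate 1_2, 2_2 or 3_2 for the second. The methods describe 3 biological replicates for each condition, whereas there are 6 knockdown arrays. The labels do not say whether the second knockdown array of a set came from a culture of its own, so the spread behind the p-values is that of single arrays and can include technical spread. The line is 1 clone, and the methods list 1 shRNA against Med12. The comparison asks how depletion of Med12, a subunit of the Mediator kinase module, changes these genes.

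A syndecan crosses the membrane, carries heparan sulfate chains outside the cell and has a short cytoplasmic tail that binds PDZ proteins and the actin cytoskeleton. A glypican has no tail, since a lipid anchor holds it to the outer leaflet of the membrane. The chains of both bind growth factors such as FGFs, morphogens and matrix proteins such as laminin and fibronectin, and they act as coreceptors and as adhesion receptors. In the developing brain the chains take part in FGF signaling of neural progenitors, in axon guidance and in synapse formation.

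Values are deposited intensities on a linear scale, and a probe was read as above background where it exceeded 16.9. All 9 arrays had a maximum of 53518.1, and between 18654 and 18690 probes were above background on each. The deposited values are quantile normalized, which makes both alike, so that they say nothing on the quality of the arrays. The Med12 probe had intensities of 355.0, 355.7 and 266.7 in NS control replicates 1 to 3, and between 112.0 and 175.9 (median 123.9) in the 6 knockdown arrays. No knockdown array reached the lowest NS control array, in the direction of the labels, and the log2 fold change was -1.26 with a standard error (SE) of 0.19 (adjusted p = 0.00447). Of the 6 neural stem markers read here, Nes, Sox2, Fabp7, Vim and Olig2 were above background and Pax6 did not pass the filter. Their summed intensity was 14399 to 14563 in NS control and 8813 to 13022 in the knockdown arrays. Vim was the largest term, at 9171 to 9755 and 4982 to 8148. The log2 fold changes were -0.40 for Vim, -0.50 for Fabp7, -0.31 for Olig2, -0.22 for Nes and 0.0005 for Sox2. The 3 astrocyte markers Gfap, Aqp4 and S100b summed to 121 to 235 and to 254 to 723, with S100b the largest term. The 4 fibroblast markers Col1a1, Col1a2, Col3a1 and Dcn summed to 22.2 to 38.5 in NS control and 24.0 to 353.0 in the knockdown arrays, the high values being of Dcn. The 5 neuronal markers summed to 19.4 to 43.8 and to 20.3 to 82.2, with Tubb3, Rbfox3, Syt1 and Snap25 below the filter and Dcx alone above it. The markers of oligodendrocytes, microglia, endothelium and pluripotent cells each summed to less than 70 on every array, and 0 markers of any list passed the test. The part of these marker shifts in the results below was not tested, and in bulk RNA fewer cells of a type and less RNA per cell cannot be told apart.

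Among the syndecans and glypicans, Sdc2 and Gpc3 were higher after Med12 knockdown and no member was lower at the threshold used, a limma p of at most 0.05 after adjustment over the 20026 probes that were above background on 3 or more arrays. Sdc2 was 2.56-fold higher, and the probes of Gpc3 were 1.79-fold and 2.16-fold higher. Of the 18 probes 11 passed the filter, of which Gpc4 and Gpc5 passed through knockdown arrays alone. With both knockdown arrays of a set averaged, 3 against 3, Sdc2 kept its call (adjusted p = 0.0142) and both Gpc3 probes lost theirs (adjusted p = 0.0725 and 0.0613). The calls of Gpc3 thus rest on counting 6 knockdown arrays, while its log2 fold changes stayed at 0.84 and 1.11. In that fit the probes called higher over all tested fell from 872 to 322, so that the loss is not particular to Gpc3. The other 8 tested probes, of Sdc1, Sdc3, Sdc4, Gpc1, Gpc2, Gpc4 and Gpc5, did not pass the test. The 3 of 11 probes called higher stand beside 4.35% of all probes tested, and the 0 called lower beside 2.85%. At 2-fold or more, 2 of the 11 were called higher, beside 2.19% of all probes. Counted by gene, with the brightest probe of each, 2 of 9 genes were higher and 0 lower, beside 5.41% and 2.86% of the 10757 genes tested. The median log2 fold change of the 11 probes was 0.02 and that of all probes -0.03. The spread between arrays of a group, as the residual SD of log2 intensity, ran from 0.21 for Sdc4 to 0.53 for the dimmer tested probe of Sdc1.

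**Figure D1:**
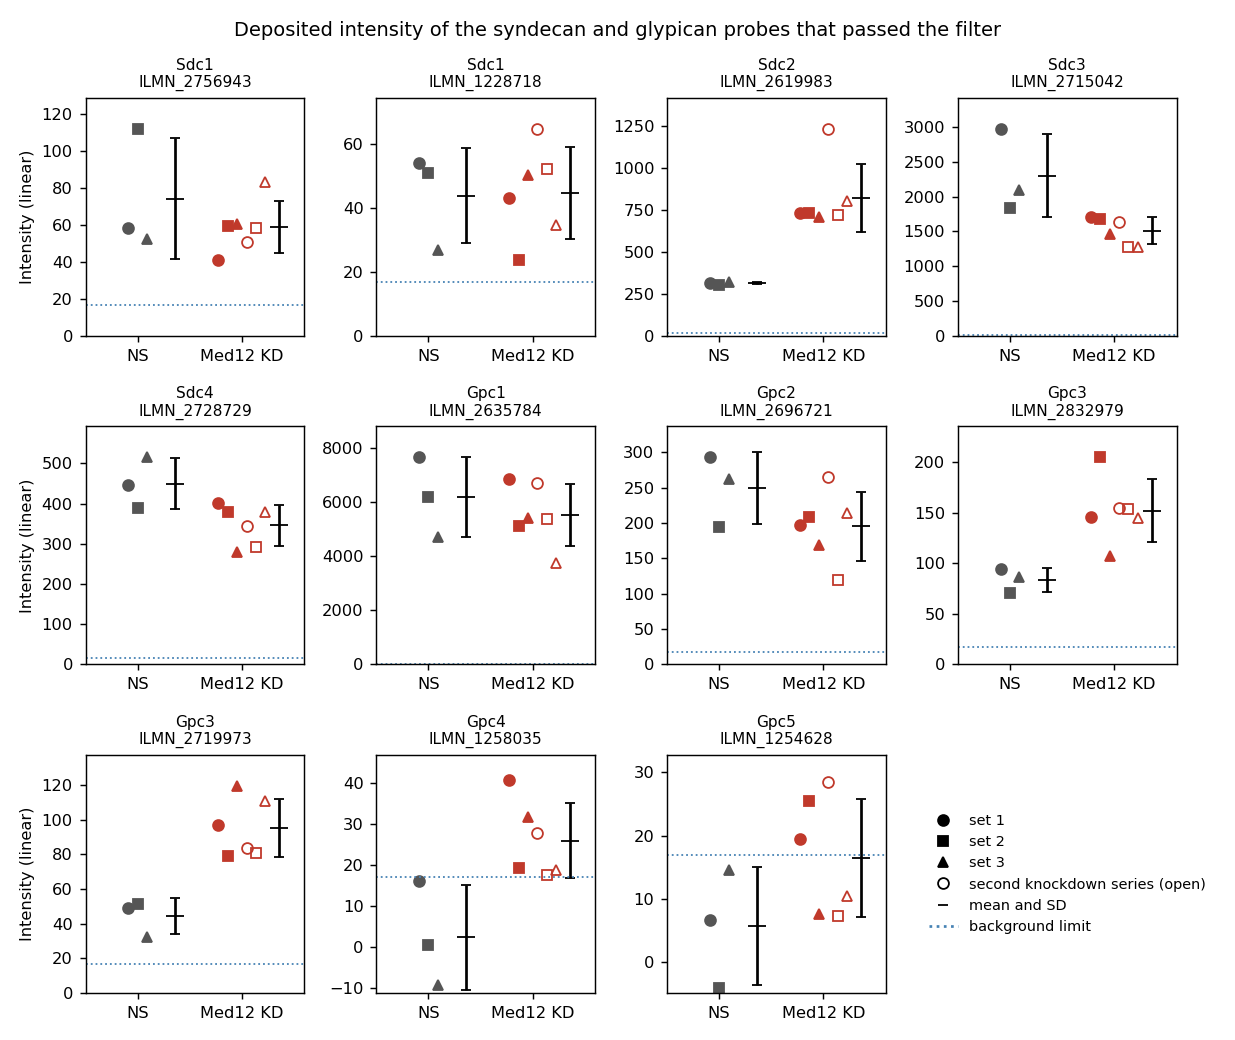
Deposited intensity (linear scale, one panel and one y axis for each probe) of the 11 syndecan and glypican probes that passed the filter, in 3 NS control arrays (grey) and 6 Med12 knockdown arrays (red, open symbols for the second series, symbol shape for the set), with the mean and SD of each group and the background limit of 16.9 as a dotted line. The knockdown arrays of Sdc2 lie between 709.4 and 1233.8, all above the NS control arrays at 306.5 to 320.3, and those of both Gpc3 probes also lie above their controls.

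Sdc2, a syndecan known from fibroblasts, endothelium and the dendritic spines of neurons, has 1 probe on the array. Its intensity was 318.5 in NS control replicate 1, 306.5 in replicate 2 and 320.3 in replicate 3. In the first knockdown series it was 731.7, 733.8 and 709.4, and in the second 1233.8, 719.8 and 804.3. Every knockdown array was above every control, and 5 of the 6 lay between 709.4 and 804.3 while set 1 of the second series stood above them. The group means were 315 ± 7.50 (SD, n = 3) and 822 ± 204 (SD, n = 6), a log2 fold change of 1.35 (SE 0.19, 95% interval 0.94 to 1.77, adjusted p = 0.00320). Of the 20026 probes, 272 had a larger rise. Within sets, the log2 fold change was 1.58 in set 1, 1.25 in set 2 and 1.24 in set 3. It was 1.23 without the highest array (adjusted p = 0.00132) and 1.20 on the first series of knockdown arrays (adjusted p = 0.0292). The rise kept its call under each of the 24 alternatives run, at 1.20 to 1.50.

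Sdc3, also called N-syndecan for its abundance in neural tissue, was read by 1 probe above background. Its intensity was 2970.3, 1835.4 and 2101.5 in NS control replicates 1 to 3. The first knockdown series had 1708.9, 1683.1 and 1465.9, and the second 1637.3, 1278.2 and 1282.4. All 6 knockdown arrays were below the lowest control, with NS control replicate 1 far above the other controls. The log2 fold change was -0.59 (SE 0.18, 95% interval -0.99 to -0.19) with an adjusted p of 0.0797, so that it did not pass the test. It was negative within each set, at -0.83, -0.32 and -0.62, and it was -0.39 without NS control replicate 1 (adjusted p = 0.246). With both knockdown arrays of a set averaged the adjusted p was 0.178. Sdc3 was called lower in 4 of 24 alternatives. The adjusted p was 0.0371 with 50 added before log2 and 0.0238 with a trended and robust variance prior. With set number as a replicate block or a random block it was 0.0379 and 0.0410. The exact permutation test over the 84 ways to place 3 controls among 9 arrays, two-sided, gave an unadjusted p of 0.0119 for Sdc3, the smallest that it can give. Sdc2 and both Gpc3 probes had the same permutation p, and Sdc4 and Gpc4 had 0.0476. For the tested probes of Sdc1, Gpc1, Gpc2 and Gpc5 it was 0.226 or more. Counted by groups that do not overlap, Sdc3 was the 1 member probe lower, beside 8.05% of all probes, and 4 were higher (Sdc2, both of Gpc3 and Gpc4), also beside 8.05%. Gpc4 passed the filter through the arrays where it is high, and of the 9 member probes above background on every array 3 were higher and 1 lower in this sense. The matching share of all probes above background on every array was not counted, so nothing is read from these 9. The other Sdc3 probe was not above background on any array.

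Sdc4, the syndecan of focal adhesions, had intensities of 446.0, 388.8 and 514.6 in the controls. The knockdown arrays ranged from 278.9 to 401.3, with a median of 361.6. The groups overlap, since knockdown replicate 1 (401.3) was above NS control replicate 2. The log2 fold change was -0.38 (SE 0.16, 95% interval -0.75 to -0.02, adjusted p = 0.189). It was negative within each set, at -0.26, -0.22 and -0.66.

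Sdc1, the syndecan of epithelia and plasma cells, was read by 3 probes. The first had intensities of 58.5, 111.9 and 52.2 in the controls and 41.3 to 83.1 (median 59.0) in the knockdown arrays. The second had 54.0, 50.9 and 26.8 and then 23.6 to 64.7 (median 46.8), and the third was above background on 1 knockdown array only, at 22.8. The groups overlap on each probe. The log2 fold changes were -0.28 (95% interval -0.88 to 0.32, adjusted p = 0.572) and 0.02 (95% interval -0.70 to 0.75, adjusted p = 0.974). Both probes gave a negative value within sets 1 and 2 and a positive one within set 3. The sign of the first rests on NS control replicate 2, without which it was 0.06, and that of the second changed under several alternatives.

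**Figure D2:**
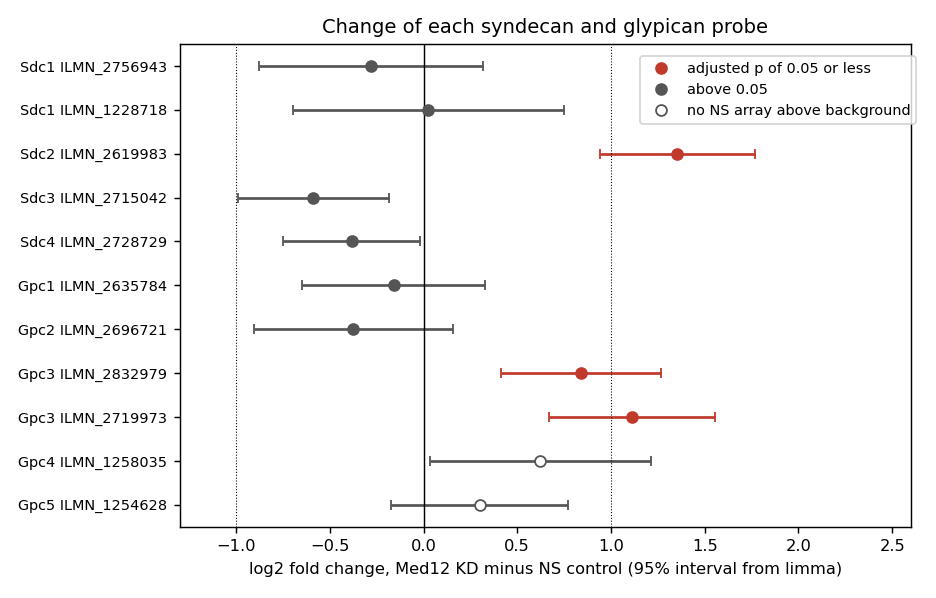
Log2 fold change of each of the 11 tested probes (Med12 knockdown minus NS control, x axis, with the 95% interval from limma), with filled red points where the adjusted p was at most 0.05 and open points where no NS control array was above background; dotted lines mark 2-fold. Sdc2 at 1.35 and the Gpc3 probes at 0.84 and 1.11 pass the threshold, whereas Sdc3 at -0.59 does not.

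Gpc3, a glypican known to bind hedgehog ligands and to restrain growth in mouse and human embryos, is the other member that was higher. The 250 bases before its start are shown because it is the glypican that rose and its promoter is in the RefSeq table used (build GRCm38.p6, chrX:52613975-52614224, minus strand). The capitals mark GC boxes (GGGCGG, or CCGCCC on the other strand), the sequence that Sp1-type factors bind.
Gpc3: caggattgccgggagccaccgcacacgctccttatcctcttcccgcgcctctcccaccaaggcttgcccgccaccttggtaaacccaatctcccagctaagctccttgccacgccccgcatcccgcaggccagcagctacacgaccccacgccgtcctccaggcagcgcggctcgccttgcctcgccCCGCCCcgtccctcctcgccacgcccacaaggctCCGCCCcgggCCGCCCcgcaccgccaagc
In this window 3 GC boxes begin 63, 29 and 19 bases before the start, the GC content is 71.6%, a CCAAT box (CCAAT or ATTGG) begins 166 bases before the start, and no TATAAA or TTTATA is found. The GC boxes do not overlap each other. Promoters of 7 of the 10 members were matched, those of Sdc1, Sdc3, Sdc4, Gpc2, Gpc3, Gpc4 and Gpc5. All 7 hold a GC box within 250 bases, as do 32.7% of the 32851 promoters in the table, and their GC content was 51.2% to 76.4% beside a median of 52.4%. The members Sdc1, Sdc3, Sdc4 and Gpc2, which were not called, hold 3 or more of these boxes as Gpc3 does, beside 8.47% of all promoters. A CCAAT box was found in 3 of the 7 and in 33.9% of all promoters, and a TATAAA box in Gpc5 alone and in 12.4% of all. These matches describe letters, not bound sites.

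The brighter of the Gpc3 probes had intensities of 94.2, 71.0 and 86.3 in NS control replicates 1 to 3. The first knockdown series had 145.8, 204.5 and 107.5, and the second 154.7, 153.7 and 144.9. All 6 were above the highest control, with the lowest, replicate 3, close to it. The other probe had 49.3, 51.4 and 32.4 in the controls, then 97.1, 79.1 and 119.5, and 83.5, 81.0 and 110.7. Here too the groups do not overlap. On this probe set 3 of both series was highest, while on the brighter probe set 2 of the first series was. The log2 fold changes were 0.84 (SE 0.19, 95% interval 0.41 to 1.27, adjusted p = 0.0288) and 1.11 (SE 0.20, 95% interval 0.67 to 1.56, adjusted p = 0.0110). Within sets 1, 2 and 3 they were 0.67, 1.32 and 0.53 on the brighter probe and 0.87, 0.64 and 1.83 on the other. The remaining Gpc3 probe, at -10.9 to 13.4, was not above background on any array. The call of the brighter probe was lost without any 1 of NS control replicates 1, 2 and 3 (adjusted p = 0.0543, 0.111 and 0.0870) or knockdown replicates 1 and 2_2 (0.0524 and 0.0576), at log2 fold changes of 0.73 to 0.93, and that of the other probe without NS control replicate 3 (0.90, adjusted p = 0.0502). In the first knockdown series alone the values were 0.82 and 1.16 (adjusted p = 0.199 and 0.0936), so that neither was called on 3 arrays against 3. With the tested probes of each gene averaged, on all 6 knockdown arrays, Gpc3 had a log2 fold change of 0.98 (SE 0.12, limma adjusted p = 0.00120).

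Gpc4, a glypican found in neural precursors and later released by astrocytes, neighbours Gpc3 on chromosome X with 0 genes between them in the GRCm38.p6 gene table. Its brighter probe was at 16, 0.3 and -9.4 in NS control, all below the background limit. The knockdown arrays had 40.7, 19.3, 31.6, 27.7, 17.4 and 18.7, all above it, though 3 of these values lay within 3 of the limit and the controls reach 16. Gpc4 did not pass the test (adjusted p = 0.187). With the controls set to the limit, the mean log2 values of the groups stood 1.45-fold apart. That value is no lower bound on a rise, since the probe passed the filter through its knockdown arrays alone. The confidence interval of its log2 fold change from limma ran from 0.034 to 1.21. With 50 added before log2 the difference was 0.56 and was called (adjusted p = 0.0385). Its other probe was below background on every array. Gpc5 was not above background on any control (6.6, -4.1 and 14.6) and was above it on 3 of 6 knockdown arrays (19.5, 25.5 and 28.5), the others being at 7.2 to 10.5, with an adjusted p of 0.431. The other 2 probes of Gpc5 and the only probe of Gpc6, which lies beyond Gpc5 on chromosome 14 with 3 genes between them, 0 of them protein-coding, were not above background on any array. For Gpc6 the values were -21.1 to 3.0, so that any difference was not detectable with this probe.

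Gpc1, the glypican most widely found in adult tissues and in neurons, had intensities of 7642.0, 6178.8 and 4689.5 in the controls and 3728.5 to 6831.5 (median 5389.1) in the knockdown arrays. The groups overlap, and the log2 fold change was -0.16 (95% interval -0.65 to 0.33, adjusted p = 0.704). It was 0.01 without NS control replicate 1. Gpc2, also called cerebroglycan and known from migrating and axon-forming neurons, had 292.7, 193.7 and 262.2 in the controls and 119.1 to 264.4 (median 203.2) in the knockdown arrays. These groups overlap too. The log2 fold change of Gpc2 was -0.37 (95% interval -0.91 to 0.16, adjusted p = 0.383), and it was negative within each set, at -0.36, -0.30 and -0.47.

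Whether Sdc2 changed unequally to the other members was tested with the log2 ratio of the Sdc2 probe to another member probe on the same array, for 10 pairs, by the exact two-sided permutation test over 84 splits. The ratio of Sdc2 to Sdc3 rose by 1.94, from -2.84 ± 0.34 (SD, n = 3) to -0.90 ± 0.32 (SD, n = 6). The ratio rose by 1.74 against Sdc4, 1.73 against Gpc2, 1.51 against Gpc1, and 1.63 and 1.33 against the Sdc1 probes. In each of these 6 pairs no knockdown array overlapped a control, with exact p = 0.0119, the smallest possible. Sdc2 was taken as the common term with its rise known, so that these p-values are not independent of that choice. Against Gpc3 the groups overlap. The difference in the ratio of Sdc2 to the brighter Gpc3 probe was 0.51 (exact p = 0.0833) and that to the other was 0.24 (exact p = 0.464). With 50 added before log2 these differences were 0.65 and 0.61 (exact p = 0.0238 and 0.0357). That offset is large beside the Gpc3 control means of 83.8 and 44.4. It lowered the Gpc3 log2 fold changes from 0.84 and 1.11 to 0.58 and 0.62, and that of Sdc2 from 1.35 to 1.23. The controls of Gpc4 and Gpc5 were below background, so that the floor sets their ratios and nothing is read from them: with the floor at 16 the differences were 0.73 and 1.05, and with values below 1 set to 1 they were -1.94 and -0.28. A ratio of this kind shows unequal change of probes and sets no level of one gene against that of another.

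**Figure D3:**
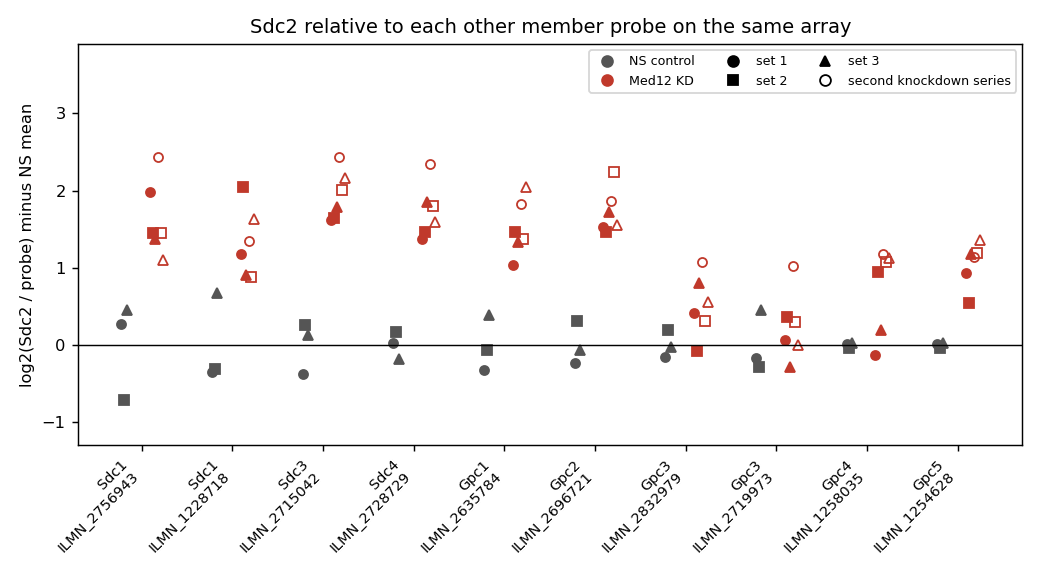
Log2 ratio of Sdc2 to each other tested member probe on the same array, minus its mean over the NS control arrays (y axis, log2 units), for 3 NS control arrays (grey) and 6 Med12 knockdown arrays (red, open symbols for the second series, symbol shape for the set). The knockdown arrays lie above the controls for Sdc1, Sdc3, Sdc4, Gpc1 and Gpc2, and overlap them for both Gpc3 probes. Gpc4 and Gpc5 were below background in the controls, so that the floor of 16 sets their points.

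The genes whose brightest probe was most like Sdc2 over the 9 arrays, by Pearson's r on log2 intensity, were Abca7 (r = 0.991), Cdk5rap2 (r = 0.988) and Igfbp4 (r = 0.987). Their own log2 fold changes were 1.04, 0.69 and 0.92. The 9 arrays hold both groups, so that r mainly follows the difference between them, and 342 genes had an r above 0.9.

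The genes that build, edit or use heparan sulfate were taken from 6 lists of 84 genes, of which 63 were tested. Of these 6 were higher and 2 lower, 9.52% and 3.17%, beside 5.41% and 2.86% of all genes tested, and 55 did not pass. With both knockdown arrays of a set averaged, 2 were higher and 1 lower, and Hs3st1, Sulf2, Fgf1, Fgfr2 and Hhip lost their calls (adjusted p = 0.0625, 0.0579, 0.0592, 0.0803 and 0.0695). Over all probes tested, that fit took those higher from 872 to 322 and those lower from 570 to 168. The median log2 fold change of the 63 genes was 0.20, beside 0.00 for all genes. By groups that do not overlap, 11 of the 63 were higher and 3 lower, beside 1097 and 902 of the 10757 genes tested. Non-overlap of single genes below is to be read beside these counts. Sulf2 and Hhip, which were called at less than 2-fold, are named after their values were seen.

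**Figure D4:**
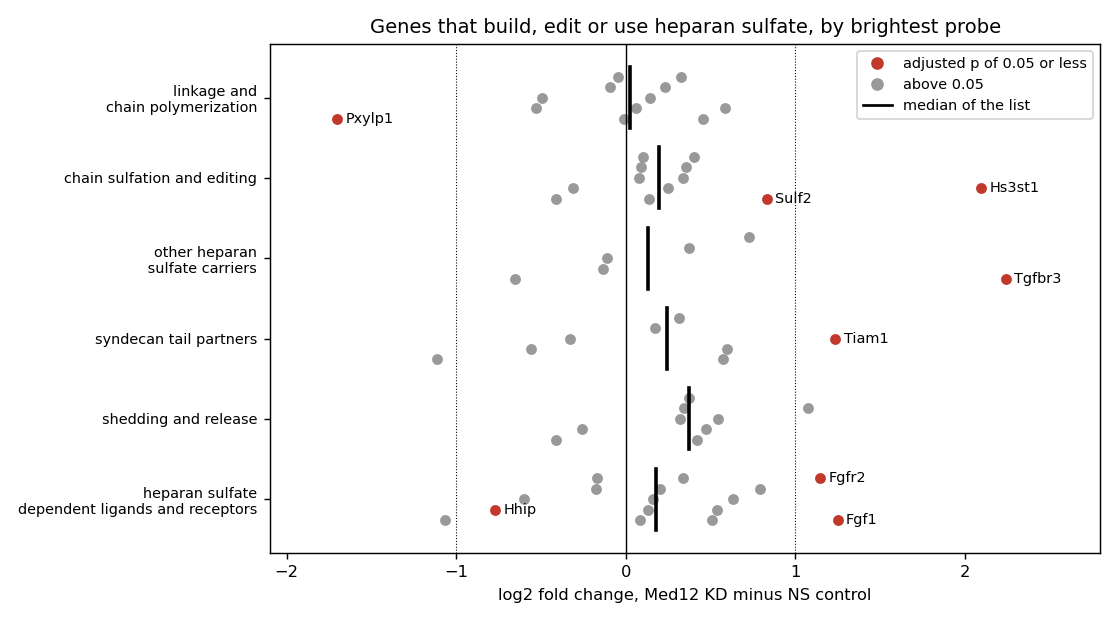
Log2 fold change (x axis, Med12 knockdown minus NS control) of the 63 tested genes of the 6 heparan sulfate lists, each gene by its brightest probe, with red points where the adjusted p was at most 0.05, a vertical bar at the median of each list and dotted lines at 2-fold. Hs3st1 and Tgfbr3 lie above 2, Pxylp1 lies at -1.70, and the list medians lie between 0.02 and 0.37.

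Every heparan sulfate chain starts on a linker of sugars that begins with xylose, and the Ext enzymes then extend it. All 12 genes of this list were tested, with 0 higher, 1 lower and a median log2 fold change of 0.02. The gene that fell was Pxylp1, a phosphatase that removes the phosphate of the linker xylose. Its intensity was 332.3 to 436.3 in the controls and 95.5 to 138.6 (median 113) in the knockdown arrays, with no overlap and a log2 fold change of -1.70 (SE 0.16, adjusted p = 4.87e-04). Fam20b, the kinase that adds that phosphate, had a log2 fold change of -0.05 (adjusted p = 0.898). Of the polymerases, Ext1 had means of 1146 in the controls and 802 in the knockdown arrays, with no overlap between groups but an adjusted p of 0.0883, and Ext2 had a log2 fold change of 0.06. The related enzymes Extl3 and Extl2 had groups that do not overlap in the other direction, at log2 fold changes of 0.46 and 0.23 (adjusted p = 0.108 and 0.249).

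Of the 20 genes that sulfate, edit or cleave the chains, 12 were tested, 2 were higher and 0 lower, and the median was 0.19. Hs3st1, which adds the rare 3-O sulfate group, was at 48.5 to 156.7 in the controls and 242.8 to 514.4 (median 476) in the knockdown arrays. The groups do not overlap, and the log2 fold change was 2.10 (SE 0.37, adjusted p = 0.0104). Sulf2, a secreted enzyme that removes 6-O sulfate from finished chains, went from 2323.1 to 2450.3 in the controls to between 3769.6 and 5527.6 (log2 fold change 0.83, SE 0.16, adjusted p = 0.0133). The call of Sulf2 was lost without NS control replicate 3 (adjusted p = 0.0515), and 1 of its 2 probes was called. Glce, the epimerase of the chain, had groups that do not overlap and a log2 fold change of 0.41 (adjusted p = 0.0914), and the other 9 tested genes had overlapping groups. The heparanase Hpse was below the filter.

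Among other carriers of heparan sulfate 6 of 9 were tested and 1 was higher. Tgfbr3, or betaglycan, a membrane coreceptor for TGF-beta that can carry such chains, was at 21.4 to 38.9 in the controls and 87.9 to 268.2 (median 120) in the knockdown arrays (log2 fold change 2.24, SE 0.37, adjusted p = 0.00754). Of the basement membrane proteoglycans, Agrn had a log2 fold change of 0.37, Hspg2 of 0.73 and Col18a1 of -0.11 (adjusted p = 0.411, 0.155 and 0.843), with overlapping groups.

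Among proteins that bind the syndecan tail or act beneath it, 8 of 9 were tested and 1 was higher. Tiam1, an activator of the GTPase Rac that binds the tail of Sdc1 by its PDZ domain, was at 318.0 to 495.7 in the controls and 768.0 to 1126.3 (median 925) in the knockdown arrays (log2 fold change 1.24, SE 0.18, adjusted p = 0.00394). Syntenin (Sdcbp), a PDZ protein of all syndecan tails, had a log2 fold change of 0.17 (adjusted p = 0.553). Cask, another PDZ partner, had non-overlapping groups and a log2 fold change of 0.59 (adjusted p = 0.147). Gipc1, also called synectin, had -1.11 on its brightest probe (adjusted p = 0.0996), while 2 of its 4 probes were called and all 4 had the same sign. Of the 10 enzymes that shed syndecans or release glypicans, 9 were tested and 0 were called in either direction, with a median of 0.37. The sheddase Adam17 was at 725.5 to 947.0 in the controls and 992.4 to 1224.6 in the knockdown arrays, with a log2 fold change of 0.37 (adjusted p = 0.141), and Notum, which cuts the glypican anchor, had 0.32 (adjusted p = 0.635).

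Of 24 ligands and receptors that use heparan sulfate, 16 were tested, 2 were higher and 1 was lower, with a median of 0.18. Fgf1, a growth factor that signals with heparan sulfate, went from 608.6 to 782.2 in the controls to between 1260.4 and 2694.4 (median 1381) in the knockdown arrays. Its log2 fold change was 1.25 (SE 0.26, adjusted p = 0.0190), both of its probes were called, and the call was lost without NS control replicate 1 or 3 (adjusted p = 0.0615 and 0.0818). Its receptor Fgfr2 went from 801.2 to 1297.8 to between 1697.4 and 3170.7, with a log2 fold change of 1.14 (SE 0.25, adjusted p = 0.0240). For Fgfr2, 1 of 3 tested probes was called, and the call was lost without NS control replicate 2 or 3 (adjusted p = 0.0935 and 0.101). Fgfr1 and Fgfr3 had log2 fold changes of 0.79 and -1.06 and did not pass (adjusted p = 0.0872 and 0.0672). The other tested probe of Fgfr1 did not share the sign of its brightest. Hhip, a membrane protein that binds hedgehog ligands, was at 30.5 to 36.7 in the controls and 7.9 to 28.6 in the knockdown arrays, above background on 4 of 6, with a log2 fold change of -0.77 (SE 0.19, adjusted p = 0.0406). The call of Hhip was lost under 16 of 24 alternatives. The heparin-binding factor Ptn and its receptor Ptprz1 had log2 fold changes of 0.16 and 0.20 (adjusted p = 0.560 and 0.609), and Fgf2, which the medium supplied as protein, was below background on every array.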

How the data were processed

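The arrays were scanned and processed by the authors in GenomeStudio (version not given in the sources used here), and the intensity values deposited are background subtracted, quantile normalized and on a linear scale. The unnormalized table was left out, as none of its 18 columns (9 of them signals) matches a sample by name. The background was estimated by mirroring negative values (SD 10.3, limit 16.9 at a one-sided p of 0.05). Values below 16 were set to 16 before log2, and the 20026 of 45281 probes over the limit on 3 or more arrays were tested. Knockdown (6 arrays) and NS control (3 arrays) were compared two-sided in R 4.3.3 with limma 3.58.1 (lmFit, then eBayes), and p-values were adjusted by Benjamini-Hochberg over all probes tested, and a gene was read by its brightest probe. Beside probes tested in limma, single values and ratios were given an exact permutation test. The number of arrays limits the precision.

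Symbols came from the platform annotation, in which 34885 probes have 1 symbol, 18 several and 10378 none, and 0 symbols changed through the GRCm38.p6 gene table. The members and lists were chosen with earlier results of these data known, so their counts are no independent support. Genes named are all member probes, Med12, list genes past both thresholds (adjusted p of at most 0.05, at least 2-fold) (up to 4 per list and direction), and the 3 genes most like a member called at 2-fold. Other list genes were named for their role after the values were seen. The fit was tested on simulated data. Alternatives covered the floor, an offset of 50, cyclic loess, the filter, the probe per gene, set number as a block, the knockdown series, array weights, the variance prior, both set 1 knockdown arrays left out and each array left out in turn. Promoters are from RefSeq. Python 3.11.15 with matplotlib 3.10.9 drew the figures.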

Additional observations from a re-analysis of the deposited data

Results flagged for a closer look

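Gaps within the 6 knockdown arrays were examined for 20 probes, and 2 had 1 array set apart. The gaps and ranges are those of log2 values, with values below the floor raised to it, and not of the intensities printed here. For Sdc2, knockdown replicate 1_2 was highest, at an intensity of 1234, with a gap to the next array of 0.773 of the range of the group. For Hhip, knockdown replicate 2 was highest, at 28.6, with a gap of 0.633 of the range. The lowest Hhip intensity in the knockdown arrays was 7.9, below the floor. The floor therefore shortens the range of Hhip and raises this ratio, so nothing is read from its flag. Chance sets apart about 1 in 20 groups. Without its high array the log2 fold change of Sdc2 was 1.23 (adjusted p = 0.00132).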

How the results depend on the processing

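Sdc2 kept its direction and call in all 24 alternatives (log2 fold change 1.20 to 1.50), as did Pxylp1. The call was lost in 10 of 24 for the brighter Gpc3 probe and 4 of 22 for the other, 4 of 24 for Hs3st1, 5 for Sulf2, 2 for Tgfbr3, 1 for Tiam1, 6 for Fgf1 and 7 for Fgfr2, each with its sign kept. Med12 lost its call on the first knockdown series (-1.23, adjusted p = 0.0599). Member probes higher numbered 1, in place of 3, with both knockdown arrays of a set averaged and in either series alone. They numbered 1 to 3 with 1 array left out. Probes higher over all tested, 872 in the main fit, numbered 322 with averaged arrays, 132 in the first series and 262 in the second. With 1 array left out they numbered 359 to 836. Member genes higher numbered 1, in place of 2, with averaged arrays, in either series alone, with no filter and without both set 1 knockdown arrays. They numbered 1 to 2 with 1 array left out. All probes higher numbered 415 with no filter and 595 without those set 1 arrays. Member probes and genes lower numbered 1, in place of 0 (Sdc3), with 50 added, with set number as a replicate block or a random block, and with the trended and robust prior. In these settings all probes lower numbered 828, 1082, 1022 and 838, in place of 570. With 50 added Gpc4 also gained a call (0.56, adjusted p = 0.0385), which made 4 member probes and 3 genes higher. Heparan sulfate genes higher (6) numbered 10 with the replicate block, 2 with no filter or averaged arrays, 1 in either series alone, and 3 to 6 with 1 array left out. With the replicate block all probes higher numbered 1432. Heparan sulfate genes lower (2) numbered 4 with 50 added or with either block. They numbered 1 with values below 1 set to 1, with no filter, with averaged arrays, in the first series, with array weights and without the set 1 knockdown arrays. In these settings that gave 1, all probes lower numbered 367, 269, 168, 55, 574 and 307. With 1 array left out heparan sulfate genes lower numbered 1 to 2 and all probes lower 173 to 559.

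The sign changed for the second Sdc1 probe in the first series (-0.17), with array weights (-0.065) and without the set 1 knockdown arrays (-0.13), and ranged from -0.30 to 0.21 with 1 array left out. With 1 array left out the first Sdc1 probe ranged from -0.49 to 0.061 and Gpc1 from -0.34 to 0.0091. With values below 1 set to 1, the change in the ratio of Sdc2 to Gpc4 was -1.94 and to Gpc5 -0.28, where controls were below background. The cause of the other changes was not tested. Over all probes, 132 to 1432 were higher and 55 to 1082 lower across settings, the highest of both with the replicate block. The main fit did not take sets as pairs. Deviations of NS control and first-series knockdown arrays of a set correlated at 0.27, 0.02 and 0.07 (second series 0.23, 0.22 and 0.16). All are positive, and the consensus correlation within sets was 0.19. Between the 2 knockdown arrays of a set, deviations from the group mean correlated at 0.22, -0.07 and 0.01. Whether those arrays share a culture was not tested. The paired fit ended no member's call and added that of Sdc3 (adjusted p = 0.0379), so that the absence of a lower member depends on this choice. Signals near the limit restrict Gpc4, Gpc5 and Gpc6.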
